A study of Mus musculus with 8 samples.

Results

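The NLRP3 inflammasome was described here by 10 genes, which were the rows of the deposited expression table whose symbol was Nlrp3, Aim2, Nlrc4, Nek7, Pycard, Casp1, Casp4, Gsdmd, Il1b or Il18. These were 10 of the 22063 genes in the table, and 8 of them passed the expression filter that left 10770 genes for testing. None of the 10 was at 0 in all 8 libraries. Tranilast, an anti-allergic drug that has been proposed to bind the NLRP3 protein directly, is the agent whose effect the series was designed to measure.

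RNA-seq was carried out on 8 libraries labelled as mouse liver, genotype WT, with 4 labelled control and 4 labelled control with tranilast. The study describes its RNA-seq as made on liver of mice given tranilast on a high-fat, high-cholesterol (HFHC) diet. The labels themselves name neither diet, age nor dose. The methods use the name control group for mice on normal chow, so the diet behind the label control is uncertain. In the methods the mice are male C57BL/6J, the vehicle is sodium carboxymethylcellulose, and tranilast was given by mouth at either of 2 doses late in the feeding period, without saying which dose the sequenced mice received. The labels do not state that each library came from a separate animal, so p-values here measure the spread between these samples, which may be technical. Summed counts were 14585153, 15056589, 15618787 and 14895420 in control replicates 1 to 4, and 13590513, 13241879, 12053036 and 14679386 in tranilast replicates 1 to 4. Where a gene had no count, as many as 3 could have been missed by sampling, equal to 0.192 to 0.249 CPM (counts scaled to library size) across the libraries, and this limit covers counting error only.

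The liver label was checked against marker genes of liver cell types, and the data went against it: the defining hepatocyte markers were absent or nearly so. The 10 hepatocyte genes found in the table summed to between 0 and 18 counts per library. Alb, which encodes serum albumin, had at most 2 counts, Ttr had 16 or 17 counts in 4 libraries and 0 in the other 4, and Fabp1, Cyp3a11, Serpina1a, Tat and Hnf4a were at 0 in all 8. Kupffer cell markers, which identify the resident macrophages of liver, summed to between 1 and 8 counts per library, and Clec4f, Vsig4 and Timd4 were at 0 throughout. By contrast, 14 macrophage genes held 0.941%, 0.998%, 0.955% and 0.954% of the counts in control replicates 1 to 4, and 0.978%, 0.975%, 0.958% and 0.916% in tranilast replicates 1 to 4. Lyz2, the lysozyme gene of myeloid cells, was the most abundant of them. The groups overlapped in this share, although 8 of the 9 tested macrophage genes were called, 2 of them higher and 6 lower with tranilast, where 57.0% of all tested genes were called, 28.2% higher and 28.8% lower. With library size alone 4 of the 9 were called, 2 in each direction, where 60.4% of all tested genes were called. Mertk, Mrc1 and the complement genes C1qa, C1qb and C1qc had at most 11 counts in any library. Among these C1qc alone did not overlap, with 0, 0, 0 and 1 counts in the control libraries and 3, 3, 7 and 8 in the tranilast libraries. Without the filter on low counts 10 of the 14 macrophage genes were called, 4 higher and 6 lower, where 40.5% of all genes were called.

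Markers of other cells were few. The T, NK and B cell genes summed to at most 6 counts per library, the endothelial genes to at most 11, the stellate and cholangiocyte genes to at most 37, and the dendritic and mast cell genes to between 17 and 58. The neutrophil list reached 129 counts, nearly all from Csf3r, with S100a9, Mpo, Camp and Retnlg at 0 in every library. Csf3r, the receptor for granulocyte colony-stimulating factor, had 83, 67, 63 and 75 counts in the control libraries and 119, 115, 84 and 128 in the tranilast libraries. Zbtb46, a transcription factor gene used as a dendritic cell marker, had 12, 14, 14 and 20 counts without tranilast and 38, 21, 30 and 49 with it. Both genes were higher in every tranilast library, with log2 fold changes of 0.67 for Csf3r (adjusted p = 6.3e-04, edgeR) and 1.24 for Zbtb46 (adjusted p = 0.00146, edgeR). The other dendritic cell genes were too low to test and went both ways. Xcr1 had 2, 4, 4 and 3 counts in the control libraries and 2, 0, 2 and 0 in the tranilast libraries. Siglech had 2, 4, 5 and 1, and 4, 7, 14 and 8. Flt3 and Ccr7 had counts in control replicate 4 only. The largest change among the 9 tested macrophage markers was in Fcgr1, a high-affinity IgG receptor, which had 1250, 1731, 1575 and 1104 counts in the control libraries and 615, 462, 465 and 489 in the tranilast libraries. Its log2 fold change was -1.42 (adjusted p = 5.1e-09, edgeR). The part of any change in cell makeup in the results below was not tested. In bulk libraries fewer cells of a type and less RNA per cell cannot be told apart. The markers went against the liver label without settling what was sequenced. The libraries are therefore called by their group label and not by a cell type.

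Inflammasomes are cytosolic complexes that macrophages build when a sensor protein detects infection or damage. The sensor recruits the adaptor ASC, encoded by Pycard, which gathers and activates caspase-1, and the caspase then cuts the precursors of interleukin-1β and interleukin-18 as well as gasdermin D, whose released fragment forms pores in the membrane and causes pyroptosis. In macrophages NLRP3 signalling usually needs a priming step through Toll-like receptors and NF-κB, which raises the transcripts of Nlrp3 and Il1b, and in fatty liver disease the pathway has been studied as a source of inflammation.

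The DNA upstream of the RefSeq starts was read from the RefSeq promoter table (GRCm38.p6), which held 9 of the 10 genes and had no entry for Gsdmd. These starts can differ from the gene coordinates given below. The windows of Aim2 and Nek7 lie within those coordinates, and the windows of Casp4 and Nlrc4 lie partly within them. Windows of 250 bases before the start were compared with 32851 windows of the same length. The median window held 6 CG dinucleotides, and 8 of the 9 genes lay below it in each of their windows, the exception being Nek7 with 17. The NF-κB binding consensus (κB), searched on both strands, matched in Nlrp3 and Casp4, and 7.25% of all windows held a match. Nlrp3 had 2 windows, and the second (chr11:59542436-59542685), which lies within the gene, held no κB match. TATAAA matched in Il1b and Il18 and in 12.4% of all windows, and AGGAAGT, a core bound by Ets-family factors, matched in Pycard, Aim2 and Nlrc4 and in 7.69%. No window held more than 1 of the 3 motifs, and a match describes letters only. The windows of Nlrp3 (chr11:59541319-59541567, plus strand, stopped before the annotated UTR), Il18 (chr9:50554450-50554699, plus strand), Il1b (chr2:129371140-129371389, minus strand) and Pycard (chr7:127993868-127994117, minus strand) are printed 5′ to 3′ because these genes were, respectively, the sensor and the cytokine that fell and the cytokine and adaptor that were almost without counts. Capitals mark the κB match in Nlrp3, which reads on both strands, TATAAA in Il1b, the same motif on the opposite strand in Il18, and AGGAAGT on the opposite strand in Pycard.
Nlrp3: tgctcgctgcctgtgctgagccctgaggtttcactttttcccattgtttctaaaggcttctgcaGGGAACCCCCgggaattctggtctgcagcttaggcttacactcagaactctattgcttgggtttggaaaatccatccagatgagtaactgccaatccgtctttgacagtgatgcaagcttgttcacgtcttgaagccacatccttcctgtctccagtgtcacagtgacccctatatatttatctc
Il18: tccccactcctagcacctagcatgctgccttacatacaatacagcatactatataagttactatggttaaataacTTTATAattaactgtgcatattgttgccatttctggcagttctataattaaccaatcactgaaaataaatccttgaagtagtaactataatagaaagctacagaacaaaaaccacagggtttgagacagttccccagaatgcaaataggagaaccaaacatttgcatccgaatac
Il1b: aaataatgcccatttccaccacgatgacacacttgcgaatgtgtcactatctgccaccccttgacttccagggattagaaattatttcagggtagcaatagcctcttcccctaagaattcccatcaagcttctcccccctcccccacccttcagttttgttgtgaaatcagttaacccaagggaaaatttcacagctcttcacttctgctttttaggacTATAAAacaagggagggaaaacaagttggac
Pycard: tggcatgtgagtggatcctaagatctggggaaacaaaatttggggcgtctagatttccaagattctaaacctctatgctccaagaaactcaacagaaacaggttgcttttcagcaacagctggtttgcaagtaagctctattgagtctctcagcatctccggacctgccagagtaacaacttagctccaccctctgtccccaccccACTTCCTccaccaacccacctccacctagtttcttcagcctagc
The TATAAA of Il1b began 31 bases before the RefSeq start of its gene, the κB match of Nlrp3 186 bases before that of Nlrp3, and the motif of Pycard 44 bases before that of Pycard.

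Across all genes, 6143 of 10770 (57.0%) had an adjusted p under 0.05 by the edgeR quasi-likelihood test after Benjamini-Hochberg adjustment, 3039 higher and 3104 lower with tranilast. Of the 8 tested inflammasome genes 4 were called, or 50.0% beside that background of 57.0%. Nlrp3, Gsdmd and Il18 fell, 3 of 8 beside 28.8% of all genes, and Aim2 rose, 1 of 8 beside 28.2% of all genes. In the same 4 genes the groups did not overlap in CPM, as in 49.8% of all tested genes. The share called was thus close to that of the whole table. The median log2 fold change of the 8 genes was -0.09 and that of all tested genes 0.01. None of the 8 tested inflammasome genes reached the absolute log2 fold change of 1.5 that the study's methods set, which 120 genes passed.

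The genes differed far more among themselves than between groups. By length-normalised level (FPKM), averaged over all 8 libraries, Nlrp3 was highest at 45.4, followed by Casp1 at 33.6, Aim2 at 31.4, Gsdmd at 28.4, Nek7 at 26.2, Il18 at 15.3, Casp4 at 9.49, Nlrc4 at 0.831, Il1b at 0.0959 and Pycard at 0.0189. Nlrp3 stood above Casp1 in every library, whereas Casp1 and Aim2, Aim2 and Gsdmd, and Gsdmd and Nek7 overlapped and each changed order. In these pairs the former was higher in 4 of 8 libraries, and the order followed the group. By FPKM, Casp1 was above Aim2 and Gsdmd above Nek7 in every control library, and below in every tranilast library. Aim2 was below Gsdmd in every control library and above it in every tranilast library. Below Nek7 each step down to Il1b was without overlap, and Il1b and Pycard overlapped near 0. Nlrp3 ranked 1826 of 10770 tested genes by mean FPKM.

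**Figure D1:**
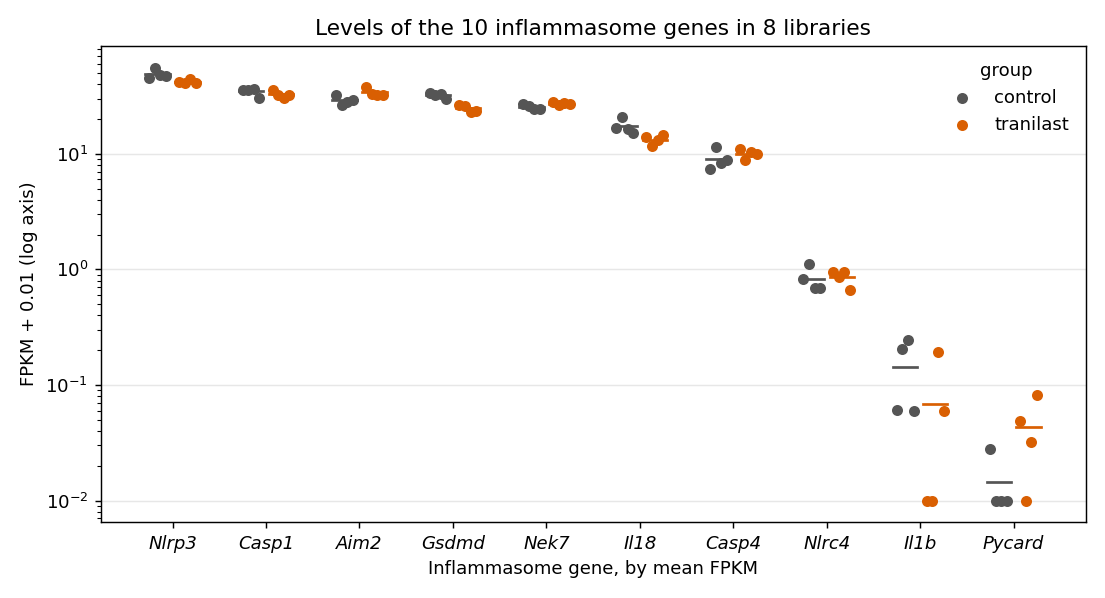
FPKM of the 10 inflammasome genes, plotted as FPKM + 0.01 on a log axis, in each control (grey) and tranilast (orange) library, with lines at the group means. Nlrp3 is highest, 7 genes lie between 7.33 and 55.6 FPKM, and Il1b and Pycard lie near 0 in both groups.

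Among the sensors, NLRP3 responds to potassium efflux and other signs of cell damage, AIM2 binds cytosolic double-stranded DNA, and NLRC4 acts with NAIP proteins that bind bacterial flagellin and secretion system parts. Nlrp3 (ENSMUSG00000032691, chromosome 11, 59541568 to 59566956 on GRCm38, plus strand) had 2581, 2670, 2643 and 2452 counts in control replicates 1 to 4 and 2045, 2138, 1914 and 2190 in tranilast replicates 1 to 4. All 4 tranilast libraries were below all 4 control libraries, and the gap remained after scaling, with 179 ± 6.59 CPM for control and 149 ± 5.76 CPM for tranilast (mean ± SD, n = 4). The level thus fell to 83.1% of control, a log2 fold change of -0.27 (SE 0.038, adjusted p = 8.8e-06 in edgeR's quasi-likelihood test) that was -0.15 with library size alone. The exact two-sided permutation test over libraries gave p = 0.0286, the smallest that 4 against 4 allow. In FPKM the groups came close, with 44.8 to 55.6 in the control libraries and 40.7 to 44.5 in the tranilast libraries.

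Aim2 (ENSMUSG00000037860, chromosome 1, 173350879 to 173466040, plus strand) had 727, 722, 796 and 732 counts in the control libraries and 834, 768, 701 and 871 in the tranilast libraries. Raw counts overlapped, tranilast replicate 3 being the smallest library, and after scaling every tranilast library was above every control library, at 56.9 ± 1.63 CPM (SD, n = 4) and 51.5 ± 1.28 CPM (SD, n = 4). The log2 fold change was 0.14 (SE 0.046, adjusted p = 0.0131, edgeR; exact permutation p = 0.0286), and it was 0.26 with library size alone. The annotated locus overlaps Cadm3 on the other strand, which had at most 5 counts in any library.

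Nlrc4 (ENSMUSG00000039193, chromosome 17, 74425438 to 74459142, minus strand) was the least abundant of the tested inflammasome genes. It had 56, 59, 45 and 44 counts in the control libraries and 53, 43, 44 and 45 in the tranilast libraries. The groups overlapped, and the difference of -0.09 on the log2 scale had a 95% interval from -0.46 to 0.28 (adjusted p = 0.708, edgeR), so a change of that size in either direction cannot be told from none at this depth. The annotation has CT033749.1 overlapping the locus on the same strand, and any reads shared with it could not be separated.

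Nek7 encodes a kinase that binds NLRP3 and is needed for its assembly. Nek7 (ENSMUSG00000026393, chromosome 1, 138482875 to 138620141, minus strand) had 1787, 1814, 1760 and 1686 counts in the control libraries and 1758, 1656, 1550 and 1826 in the tranilast libraries. The groups overlapped, with 122 CPM as the mean of both. The log2 fold change was -0.00 with a 95% interval from -0.08 to 0.07 (adjusted p = 0.963, edgeR). With library size alone it was 0.11 (adjusted p = 0.0166), while that scaling raised the median of all tested genes by 0.12, so Nek7 stayed close to the median gene under either scaling.

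**Figure D2:**
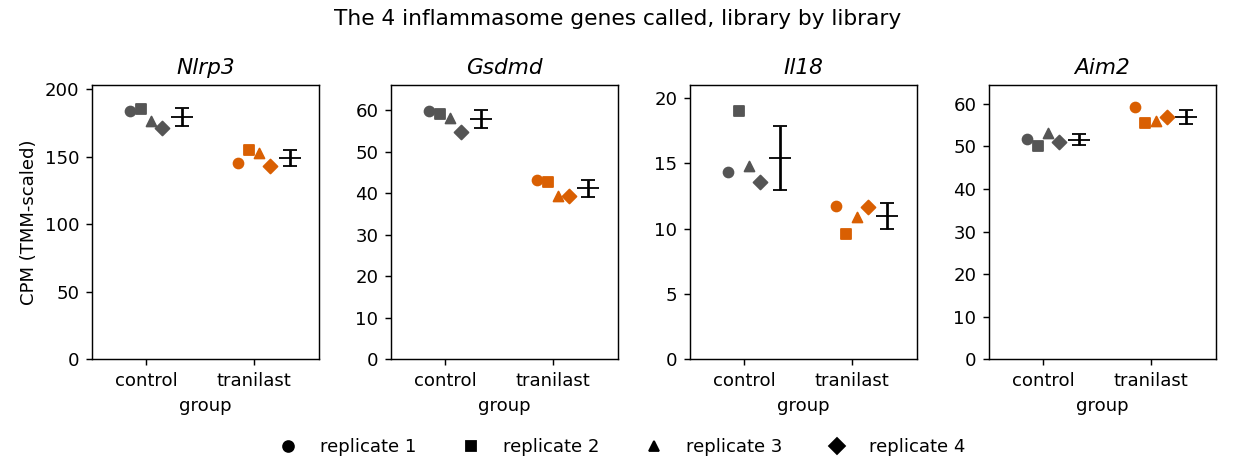
CPM, scaled by TMM, of Nlrp3, Gsdmd, Il18 and Aim2 in each library, with the replicate number given by the symbol and black bars at the mean ± SD of the 4 libraries in a group. Every tranilast library is below every control library in Nlrp3, Gsdmd and Il18, and above in Aim2.

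Pycard encodes ASC, the adaptor that joins a sensor with a pyrin domain, such as NLRP3 or AIM2, to caspase-1. Pycard (ENSMUSG00000030793, chromosome 7, 127989708 to 127993867, minus strand) had 1, 0, 0 and 0 counts in the control libraries and 2, 0, 1 and 4 in the tranilast libraries. It was at 0 in 4 of 8 libraries and at or below the 3-count limit in all but tranilast replicate 4. Nlrp3, Aim2, Casp1 and Nek7 had at least 548 counts each in the same libraries. Pycard did not pass the filter and was not tested in the comparison across genes, and the exact permutation test of its CPM gave p = 0.143 (two-sided). No fold is given at these counts.

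Caspase-1 is the protease of the canonical complex, and caspase-11, encoded by mouse Casp4, binds bacterial lipopolysaccharide in the cytosol and cuts gasdermin D without a sensor of the NLR type. Casp1 (ENSMUSG00000025888, chromosome 9, 5298517 to 5307265, plus strand) had 695, 702, 771 and 617 counts in the control libraries and 722, 602, 548 and 652 in the tranilast libraries. In CPM 3 tranilast libraries lay between 42.5 and 43.8, beside 43.1 in control replicate 4, and tranilast replicate 1 reached 51.3, within the other control libraries. The log2 fold change was -0.09 with a 95% interval from -0.22 to 0.04 (adjusted p = 0.259, edgeR), and it was 0.03 with library size alone. Without tranilast replicate 1 it was -0.15 (adjusted p = 0.0524), and over all alternatives adjusted p ran from 0.0524 to 0.776.

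Casp4 (ENSMUSG00000033538, chromosome 9, 5308828 to 5336783, plus strand) had 154, 212, 186 and 144 counts in the control libraries and 215, 135, 165 and 184 in the tranilast libraries. The groups overlapped over most of their range, and the spread within each was wide, from 10.1 to 14.7 CPM without tranilast and from 9.77 to 15.3 CPM with it. The log2 fold change was 0.06 with a 95% interval from -0.21 to 0.33 (adjusted p = 0.736, edgeR), and it turned to -0.05 without tranilast replicate 1 and to -0.02 without control replicate 4.

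Gasdermin D is the effector that both caspases cut. Gsdmd (ENSMUSG00000022575, chromosome 15, 75862327 to 75867408, plus strand) had 840, 851, 868 and 785 counts in the control libraries and 608, 589, 493 and 604 in the tranilast libraries. The groups were far apart, with the highest tranilast library at 608 and the lowest control library at 785. CPM fell from 57.9 ± 2.21 (SD, n = 4) to 41.2 ± 2.04 (SD, n = 4), or to 71.1% of control. The log2 fold change was -0.49 (SE 0.052, adjusted p = 2.2e-07 in edgeR's quasi-likelihood test; exact permutation p = 0.0286). With each library left out in turn it lay between -0.52 and -0.47.

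The 2 cytokine genes differed in level. Il18 (ENSMUSG00000039217, chromosome 9, 50554827 to 50581840, plus strand), whose precursor many cells make without priming, had 202, 273, 221 and 194 counts in the control libraries and 165, 133, 136 and 179 in the tranilast libraries. All tranilast libraries were below all control libraries, with control replicate 2 the highest and control replicate 4 nearest to the tranilast group. The level fell to 71.3% of control, a log2 fold change of -0.49 (SE 0.115, adjusted p = 0.00145, edgeR; exact permutation p = 0.0286). The annotation places Bco2 on the other strand of the locus, where it had between 38 and 89 counts, and reads from overlapping stretches cannot be assigned without knowing whether the counting used strand.

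Il1b (ENSMUSG00000027398, chromosome 2, 129364570 to 129371139, minus strand) encodes the cytokine that is the best-known product of the NLRP3 inflammasome, and it was almost absent. It had 1, 4, 5 and 1 counts in the control libraries and 0, 0, 3 and 1 in the tranilast libraries. The groups overlapped at the detection limit, Il1b was not tested across genes, and the exact permutation test gave p = 0.171 (two-sided). Il1b mRNA was an endpoint of quantitative PCR on liver tissue in the study, which reported it lower with tranilast on the HFHC diet. The libraries here were almost without hepatocyte and Kupffer cell markers, so these measurements are not compared. The product of the listed primers was located in the GENCODE M21 transcript of Il1b to show which stretch that assay reads. It spans 117 bases, from base 328 to base 444 of 1356, with 58 bases in exon 4 (chr2:129367957-129368014) and 59 in exon 5 (chr2:129367352-129367410) of 7. Capitals mark the forward primer and the site of the reverse primer.
Il1b PCR product: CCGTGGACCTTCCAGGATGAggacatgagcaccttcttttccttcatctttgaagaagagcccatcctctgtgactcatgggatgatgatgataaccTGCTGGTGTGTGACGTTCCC
The counts of the deposited table cover the gene as a whole and not that stretch alone.

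**Figure D3:**
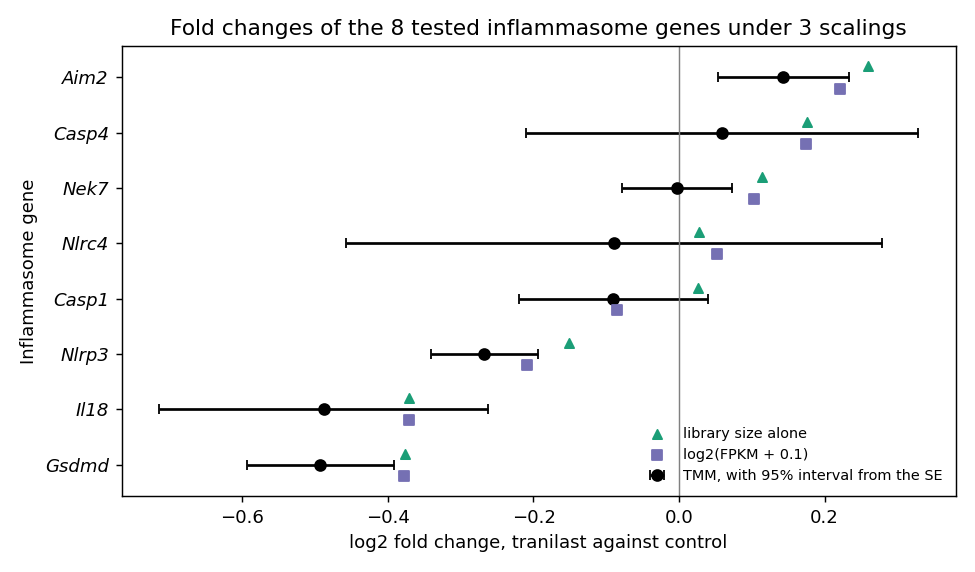
Log2 fold change of the 8 tested inflammasome genes, tranilast against control, with TMM scaling (black, 95% interval from the standard error), with library size alone (green) and from log2(FPKM + 0.1) (purple). Gsdmd, Il18 and Nlrp3 lie below 0 and Aim2 above 0 under all 3, while Nek7 and Nlrc4 turn from below to above 0 under both others and Casp1 under library size alone.

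Scaling set the balance of the whole table. Among all called genes 49.5% were higher with tranilast under TMM, 62.6% with upper-quartile factors, 70.4% with log2(FPKM + 0.1) and 70.9% with library size alone. With library size alone 60.4% of all tested genes were called and the median log2 fold change of all was 0.125, the background for the library-size values below. Ratios between 2 genes in the same library do not depend on the scaling factors, although FPKM also carries transcript length. The FPKM ratio of Aim2 to Gsdmd was 0.906 ± 0.0786 (SD, n = 4) in the control libraries, where it ran from 0.823 to 0.982, and 1.37 ± 0.0771 (SD, n = 4) in the tranilast libraries, where it ran from 1.26 to 1.44. The ratio of Nlrp3 to Aim2 ran from 1.39 to 2.12 in the control libraries and from 1.12 to 1.37 in the tranilast libraries. The ratio of Gsdmd to Casp1 ran from 0.890 to 0.982 in the control libraries and from 0.734 to 0.803 in the tranilast libraries. These 3 ratios were chosen after their values were seen from the 10 among Nlrp3, Aim2, Casp1, Gsdmd and Nek7, of which 6 did not overlap between groups in FPKM and 4 did. Over all pairs of the 10741 tested genes with FPKM above 0 in every library, 42.1% of ratios did not overlap. The tally was the same in counts but not its pairs, since Nlrp3 to Gsdmd overlapped in FPKM only and Aim2 to Casp1 in counts only.

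Wider lists around the inflammasome held 105 genes that were found in the table, of which 86 were tested and 62 called, 23 higher and 39 lower with TMM and 32 higher and 27 lower with library size alone, where 70.9% of all called genes were higher. Their share called of 72.1% stood beside 57.0% of all tested genes. Their median log2 fold change was below that of all genes under both scalings, at -0.06 beside 0.01 with TMM and at 0.06 beside 0.125 with library size alone. The 6 lists differed in balance. In the plot of the lists, the noncanonical list alone had a median far from that of all genes.

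**Figure D4:**
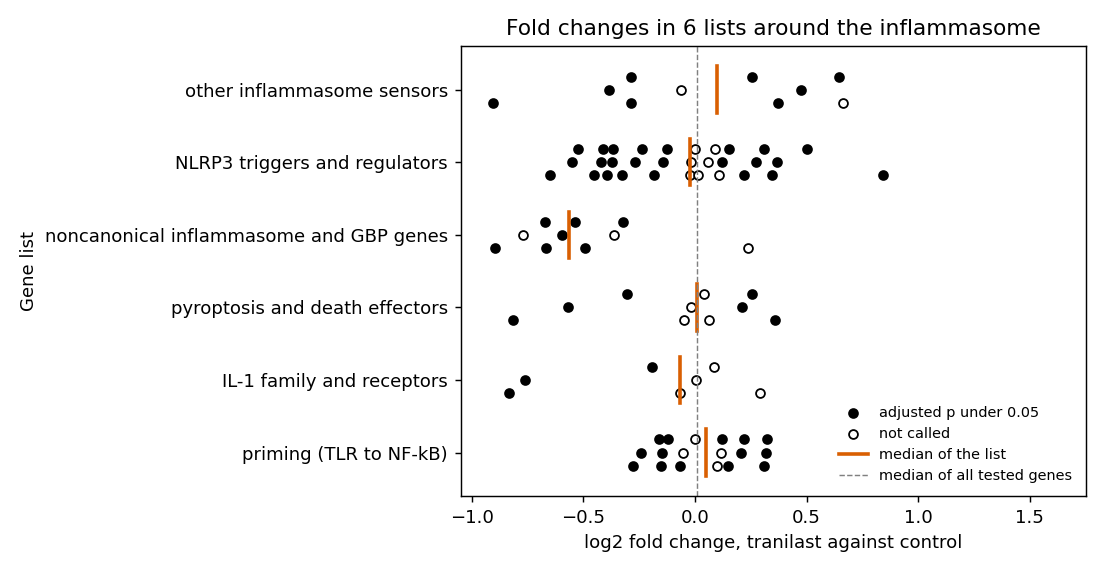
Log2 fold change of each tested gene, tranilast against control, in 6 lists around the inflammasome, filled where the adjusted p was under 0.05, with orange lines at the list medians and a dashed line at the median of all tested genes. The noncanonical inflammasome and GBP list has its median at -0.57 with TMM scaling, and the other 5 have theirs between -0.07 and 0.10, while library size alone moves these 5 above 0 and the median of all genes to 0.125.

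Of 15 other sensor and regulator genes 10 were tested and 8 called (80.0%, beside 57.0% of all tested genes), 4 in each direction. The median was 0.10, or 0.21 with library size alone (0.125 for all genes) and -0.07 without the filter on low counts. The NAIP genes encode the receptors that load NLRC4, and 3 of them rose. Naip5 counts ran from 208 to 252 without tranilast and from 327 to 382 with it, with a log2 fold change of 0.65 (adjusted p = 1.9e-06, edgeR). Naip2 had a log2 fold change of 0.48 (adjusted p = 1.2e-06) and Naip6 of 0.37 (adjusted p = 2.9e-04), and in all 3 genes the tranilast libraries were above the control libraries. Naip1 was low, with at most 24.8 counts, and was not called. The counts of these paralogs are fractional, so some reads were shared with other loci, which were not identified, and each level is uncertain. Dhx9, an RNA helicase that can sense nucleic acids, fell from 517 ± 7.28 CPM to 396 ± 11.6 CPM (SD, n = 4), and its log2 fold change was -0.39 (adjusted p = 1.1e-09). Dpp8, an inhibitor of NLRP1 inflammasomes, was not called, at -0.06 with TMM and up to 0.06 under the other scalings, although 1 of 18 alternatives called it. Nlrp1a and Nlrp9b were at 0 in all libraries, and Nlrp6, Nlrp12 and Mefv had at most 3 counts.

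Among 34 triggers and regulators of NLRP3, 31 were tested and 24 called (77.4%, beside 57.0% of all tested genes), 9 higher and 15 lower with TMM and 13 higher and 11 lower with library size alone. The median was -0.02 with TMM and 0.09 with library size alone, below the 0.01 and 0.125 of all genes. P2rx4, an ATP-gated channel, rose from 132, 124, 149 and 146 counts in the control libraries to 221, 247, 219 and 268 in the tranilast libraries. All tranilast libraries were higher, and the log2 fold change was 0.84 (SE 0.095, adjusted p = 5.8e-07, edgeR), while the ratio of mean FPKM, which also carries the transcript length assigned to each library, was 1.20 on the log2 scale. P2rx7, the ATP-gated channel whose opening is the classical trigger of NLRP3, was named after its values were seen and had a log2 fold change of 0.35 (adjusted p = 1.5e-05). Eif2ak2, the RNA-activated kinase PKR, fell with a log2 fold change of -0.65 (adjusted p = 8.0e-05), Hsp90ab1, a chaperone that stabilises NLRP3, with -0.55 (adjusted p = 1.5e-14), Ptpn22, a phosphatase that acts on NLRP3, with -0.52 (adjusted p = 1.9e-08), and Vim, the intermediate filament vimentin, with -0.40 (adjusted p = 1.9e-10). The groups did not overlap in any of these genes. In Eif2ak2 they came close, with 2477 counts in control replicate 4 and 2401 in tranilast replicate 1.

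The noncanonical list covers interferon-inducible GTPases of the GBP and IRG families, which help to open bacterial vacuoles and expose lipopolysaccharide to caspase-11, with related factors. Of its 12 genes 11 were found and 10 tested, and 7 of the 10 were called, all lower, with a median of -0.57. Of all tested genes 57.0% were called and 28.8% were called lower. The count depended on the method. DESeq2 called 2, both lower, where it called 54.5% of all tested genes, while the list median stayed at -0.57. From log2(FPKM + 0.1) 2 were called, 1 in each direction, beside 52.2% of all genes, with a median of -0.46. With library size alone 6 were called, of which 1 was higher, beside 60.4% of all genes, with a median of -0.45. Hmgb1, a nuclear protein that can carry lipopolysaccharide into cells, fell from 616 ± 4.71 CPM to 425 ± 12.2 CPM (SD, n = 4), and its log2 fold change was -0.54 (adjusted p = 6.2e-12, edgeR). Irf2, a regulator of Gsdmd transcription, had 1104, 1150, 1183 and 972 counts in the control libraries and 912, 828, 736 and 932 in the tranilast libraries, and a log2 fold change of -0.32 (adjusted p = 6.3e-05), a call that held in 16 of 18 alternatives with adjusted p up to 0.112. In these 2 genes the groups did not overlap.

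In the GTPases the groups did overlap. Irgm1, the most abundant, had 2136, 2954, 2567 and 1768 counts in the control libraries and 2176, 1130, 1488 and 1195 in the tranilast libraries. Tranilast replicate 1 lay within the control range and the other 3 tranilast libraries below it. Its log2 fold change was -0.59 (adjusted p = 0.00522, edgeR), in a range of adjusted p from 2.0e-07 to 0.0731 over the alternatives. The order of libraries recurred across Gbp2, Gbp3, Gbp5, Gbp7, Irgm1, Irgm2 and Igtp, which were singled out after their values were seen. Control replicate 2 was the highest of all libraries in 6 of the 7 genes, tranilast replicate 4 the lowest in 6 of 7, and tranilast replicate 1 the highest tranilast library in all 7. Averaged over the 7 genes and relative to the control mean, log2 CPM was -0.21, 0.44, 0.23 and -0.46 in control replicates 1 to 4 and 0.07, -1.06, -0.39 and -1.38 in tranilast replicates 1 to 4. Ifi204, a DNA sensor of the AIM2-like family, and Zbp1, a sensor of left-handed nucleic acids, had the same outer libraries, with 899 and 403 counts in control replicate 2 and 205 and 89 in tranilast replicate 4. Their log2 fold changes were -0.90 (adjusted p = 0.0049) and -0.81 (adjusted p = 0.0181), with adjusted p up to 0.0628 and 0.117 over the alternatives. What sets this spread within groups was not tested.

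**Figure D5:**
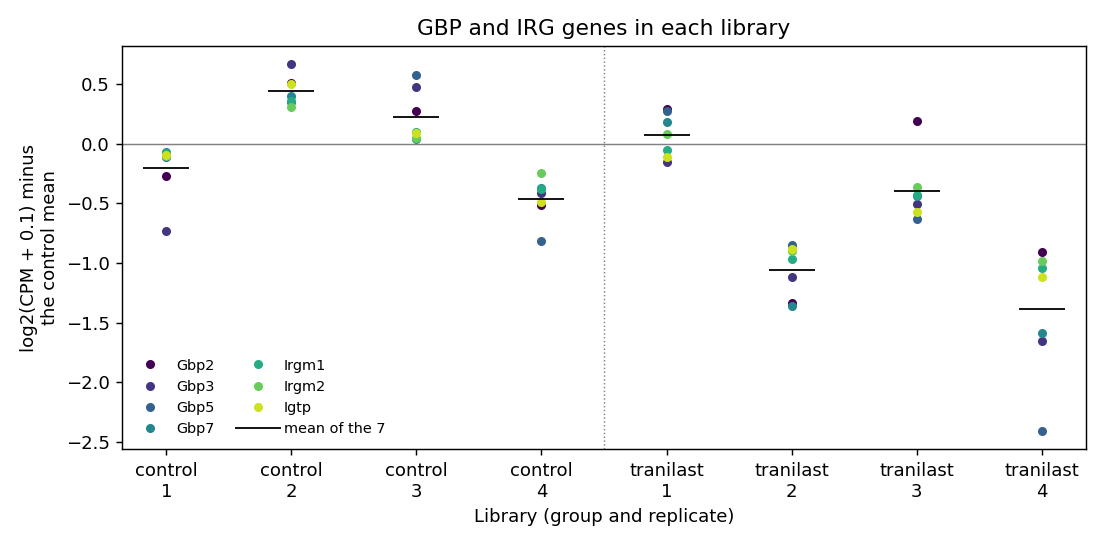
Log2(CPM + 0.1) of 7 GBP and IRG genes in each library, relative to the mean of the 4 control libraries, with black lines at the mean of the 7 genes. The mean runs from -0.46 to 0.44 in the control libraries and from -1.38 to 0.07 in the tranilast libraries, so the groups overlap.

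Of 13 genes of pyroptosis and other lytic death 10 were tested and 6 called (60.0%, beside 57.0% of all tested genes), 3 higher and 3 lower with TMM and 5 higher and 3 lower with library size alone, and the median was 0.01 with TMM, as over all genes. Ninj1, which ruptures the plasma membrane late in lytic death, rose from 62.8 ± 3.02 CPM to 80.6 ± 4.42 CPM (SD, n = 4), and its log2 fold change was 0.36 (adjusted p = 6.9e-06, edgeR). Mlkl, the pore-forming effector of necroptosis, fell from 18.8 ± 2.78 CPM to 12.7 ± 1.07 CPM (SD, n = 4), with -0.57 (adjusted p = 2.0e-04). Chmp4b, part of the machinery that repairs membrane wounds, fell with -0.31 (adjusted p = 1.7e-04). Gsdme, a gasdermin cut by caspase-3, had 0.25 (adjusted p = 0.0463), a call that held in 9 of 18 alternatives with adjusted p up to 0.164. Gsdmc was at 0 and Gsdma had at most 1 count, so gasdermin transcripts came from Gsdmd and Gsdme among the 4 gasdermin genes read.

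The cytokine list, which joined IL-1 family genes and receptors with Il6 and Tnf, had 15 genes, of which 14 were found, 7 tested and 3 called (42.9%, beside 57.0% of all tested genes), all lower with TMM, while 1 was higher and 2 lower with library size alone. The median was -0.07 with TMM and 0.05 with library size alone, below that of all genes under both. Il1rl1, the interleukin-33 receptor, had 843, 951, 1003 and 841 counts in the control libraries and 495, 463, 429 and 585 in the tranilast libraries. Il18rap, a subunit of the interleukin-18 receptor, had 803, 788, 852 and 737 counts in the control libraries and 482, 428, 455 and 441 in the tranilast libraries. In both genes the tranilast libraries were well below the control libraries, with log2 fold changes of -0.83 (adjusted p = 1.1e-09, edgeR) and -0.76 (adjusted p = 1.8e-08). The partner subunit gene Il18r1 had at most 7 counts. Tnf was abundant, at 85.7 FPKM in the control group, and fell by 0.19 on the log2 scale (adjusted p = 6.9e-04), with adjusted p up to 0.149 over the alternatives. Il1a had at most 4 counts, and Il1r1, Il1r2, Il33, Il36g and Il6 had at most 2. Transcripts of Il1rn, the interleukin-1 receptor antagonist, were present at between 116 and 192 counts and were not called (log2 fold change -0.07, adjusted p = 0.674).

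All 18 genes of the priming route from Toll-like receptors to NF-κB were tested, and 14 were called (77.8%, beside 57.0% of all tested genes), 7 in each direction with TMM, and the median was 0.05. With library size alone 8 were higher and 2 lower, where 70.9% of all called genes were higher. Tlr2, a receptor for bacterial lipopeptides, rose from 308 ± 5.03 CPM to 385 ± 12.8 CPM (SD, n = 4), and its log2 fold change was 0.32 (adjusted p = 4.5e-08, edgeR). Ikbkg, the regulatory subunit of the IκB kinase, and Irak4, a kinase downstream of the receptors, rose with 0.32 (adjusted p = 1.4e-05) and 0.31 (adjusted p = 0.00221). Myd88, the adaptor of most Toll-like receptors, fell with -0.28 (adjusted p = 1.4e-04). Cd14, the lipopolysaccharide co-receptor, was the most abundant gene of the list, at 837 FPKM in the control group and 865 FPKM in the tranilast group, and its log2 fold change of -0.07 (adjusted p = 0.0293) turned to 0.05 with library size alone. The 2 transcripts that priming raises in macrophages differed in level, with Nlrp3 among the higher genes of the table and Il1b at the detection limit.

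The deposited annotation also assigns 219 genes to the KEGG pathway of NOD-like receptor signaling, a list chosen after the data were seen. Of these, 139 were tested and 85 called, or 61.2% beside the background of 57.0%, with 34 higher and 51 lower, and the median log2 fold change was -0.04, beside 0.01 for all genes. With library size alone 58 were higher and 34 lower and the median was 0.07, again below the 0.125 of all genes.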

How the data were processed

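Paired-end libraries had been made from poly-A selected RNA with a TruSeq kit, and the reads were not analysed here. The instrument named in the methods, HiSeq X-ten, differs from the NovaSeq model in the labels. The aligner, counter, genome build and whether counting used strand are not given in the sources used here. The authors deposited, for each of 22063 genes, an estimated count that need not be whole and an FPKM value normalised for length and depth. Coordinates are from GENCODE M21 (GRCm38), in which 21973 of the gene identifiers were found.

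Estimated counts were rounded, genes filtered with filterByExpr, libraries scaled by TMM, and groups compared with the quasi-likelihood test of edgeR 4.0.16 in R 4.3.3 without covariates, with Benjamini-Hochberg adjustment over 10770 genes and a threshold of 0.05. CPM used TMM-scaled library sizes. Standard errors were taken from the fit as the fold change over the root of F, and 95% intervals from these with normal quantiles. Single genes also had an exact permutation p, two-sided, from log2(CPM + 0.1) over libraries (scipy 1.17.1). No pair of libraries in a group agreed within sampling noise, with chi-square per degree of freedom between 2.54 and 5.47.

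The inflammasome genes, the 6 wider lists and the 8 marker lists were chosen with earlier results of these data known. Of each wider list at most 6 genes are named by rule, up to 4 called without overlap by absolute fold change and up to 2 by mean FPKM. Genes outside this rule were chosen after their values were seen. Irgb10, Il1f9 and Tf were not found by symbol, and of these Il1f9 is an older name of Il36g. The alternatives were RLE, upper-quartile and library-size scaling, DESeq2 1.42.0, limma-voom and limma on log2(FPKM + 1) or log2(FPKM + 0.1) (limma 3.58.1), leaving out the filter, requiring 10 counts per library, a replicate block, each library left out, and a change of 1.5 or more on the log2 scale in either direction. The code was tested on simulated data.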

Additional observations from a re-analysis of the deposited data

Results flagged for a closer look

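In 66 groups of 4 libraries, for the tested inflammasome genes and the genes named by rule, 4 held a library far from the other 3, where chance gives about 5% of groups. Casp1 in the tranilast group had tranilast replicate 1 at a log2 CPM of 5.68, with the other 3 between 5.41 and 5.46. Irf2 in the control group had control replicate 4 at 6.09, with the others between 6.30 and 6.32. P2rx4 in the tranilast group had tranilast replicate 1 at 3.98, with the others between 4.14 and 4.17, and Ptpn22 in the control group had control replicate 2 at 6.62, with the others between 6.54 and 6.55. The causes were not tested.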

How the results depend on the processing

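Nlrp3, Gsdmd and Il18 stayed lower and Aim2 higher, each with adjusted p under 0.05, under all 18 alternatives fitted, with log2 fold changes from -0.29 to -0.15 for Nlrp3, from -0.52 to -0.37 for Gsdmd, from -0.55 to -0.35 for Il18 and from 0.13 to 0.26 for Aim2. With changes of 1.5 or more required on the log2 scale, the counts in edgeR became 120 genes of all, 0 inflammasome genes and 0 genes of the wider lists, because the threshold is beyond the changes of those that were tested and called. Among the inflammasome genes, directions turned only in those that were not called. With library size alone, log2 fold changes were 0.0263 for Casp1, 0.114 for Nek7 (adjusted p = 0.0166 by edgeR, a call gained) and 0.0274 for Nlrc4. With log2(FPKM + 1) they were 0.10 for Nek7 and 0.0235 for Nlrc4, with log2(FPKM + 0.1) 0.10 and 0.0516, and with upper-quartile factors 0.0647 for Nek7. With each library left out in turn, Casp4 ranged from -0.0475 to 0.17 and Nek7 from -0.0214 to 0.0156. The cause was not tested, beyond the shift of all genes that each scaling brings. The called genes of the noncanonical list fell from 7 to 2 with DESeq2, where 54.5% of all genes were called and the list median stayed at -0.57. Those of the macrophage markers fell from 8 to 4 with library size alone, where 60.4% of all genes were called. The replicate numbers did not pair the samples, since same-numbered libraries correlated at -0.06, -0.04, 0.01 and 0.11, and with the replicate block 6009 genes, 4 inflammasome genes and 61 wider list genes were called in place of 6143, 4 and 62. Low counts limited Il1b and Pycard, where a change could not be seen, and Nlrc4, whose interval was wide.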
